A study of Nothobranchius furzeri with 20 samples.

Results

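Livers of male turquoise killifish (Nothobranchius furzeri) at 14 weeks of age were compared with livers at 7 weeks. Both groups were untreated males of the GRZ strain, with 5 fish at 14 weeks and 5 fish at 7 weeks, chosen by the age given for each sample. They are 10 of the 20 RNA-seq libraries of a series that also covers 5 and 10 weeks and asks how liver expression differs between age groups. Each library carries a label of its own, and the label numbers of all 14-week libraries lie above those of all 7-week libraries. The meaning of these numbers is not known here, so anything tied to their order cannot be told apart from age. Whether every library came from a different animal is not stated, and the p-values cover only the spread seen among these libraries, which may be technical. All of the 16475 genes that passed a filter on low counts, of 26739 listed, are described. The files give genes by identifiers that are not paired with names, and none of them (0) matched the reference table used here. No gene is therefore named or given a function, and the label "liver" could not be checked against marker genes. Most genes are given by their rank in mean abundance over the 10 fish, with rank 1 the most abundant.

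GRZ is an inbred killifish line that is used in ageing research for its short life. Liver expresses a few secreted plasma proteins and metabolic enzymes at very high level, so a small number of genes takes a large part of the sequenced RNA. Most other genes, including those for signalling, cell division and rarer cell types, sit orders of magnitude lower. A change in a bulk liver library can come from a change in RNA per cell or in the number of cells of a type, and these cannot be told apart.

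Total counts ran from 24890288 to 34710218 in 14-week libraries and from 24566917 to 37122038 in 7-week libraries. Levels are TMM-scaled CPM, the counts of a gene relative to the scaled total of its library, on which 3 reads were 0.0830 to 0.128 CPM. A principal component analysis of the 10 fish on log2 CPM set the ages apart on its leading axis (42.2% of the variance), with scores of 41.1 to 80.0 at 14 weeks and -82.2 to -37.7 at 7 weeks. On the next axis 14-week fish 5 stood apart with a score of -102, while scores were 1.78 to 35.7 in the other 14-week fish and -22.2 to 18.2 in the 7-week fish. In this fish 27.6% of tested genes were at least 2-fold off the mean of the other 14-week fish, against 7.91% to 9.79% in the other 14-week fish and 5.58% to 14.3% in 7-week fish. Results that rest on it are given with and without it. Other age pairs share these libraries and are not described here.

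About 3 in 10 tested genes differed between the ages, in nearly balanced numbers. At 14 weeks 2345 genes rose and 2755 fell, which is 14.2% and 16.7% of tested genes and 31.0% in all (edgeR quasi-likelihood test, adjusted p under 0.05). Called changes were typically a little over 2-fold, with a median absolute log2 change of 1.21 among rises and 1.11 among falls, against 0.55 over all tested genes. Changes of at least 4-fold were seen in 397 rises and 390 falls, and of at least 16-fold in 22 rises and 43 falls. When the test itself asked for more than a 2-fold change, 583 genes passed (3.54% of tested genes), 221 higher and 362 lower at 14 weeks. Leaving out 14-week fish 4 gave 386 such genes, leaving out 7-week fish 2 gave 374, leaving out 7-week fish 4 gave 379 and leaving out 14-week fish 5 gave 795.

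The median log2 change over all tested genes was 0.03. TMM scaling levels the libraries on the bulk of their genes, so a median near 0 is largely fixed by it and is not read as a result. The numbers of rises and falls are relative to the same scaling. With no scaling beyond library totals, 2184 genes rose and 2513 fell. Without 14-week fish 5 there were 2441 rises and 3243 falls, and 4632 of the 5100 called genes were called again. In the 10 fits that each left out a single fish, 1468 rises (62.6%) and 1988 falls (72.2%) were called every time, and 3 called genes changed sign in some fit.

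The called genes made up a limited part of the RNA. Rising genes together took 11.2% to 16.5% of counts in 14-week fish and 5.09% to 6.65% in 7-week fish. Falling genes took 4.18% to 5.42% in 14-week fish and 12.3% to 15.8% in 7-week fish. These shares describe genes chosen on the same fish. In fish of the other ages, which entered the low-count filter and the shared estimate of spread but not the contrast, the rising genes took 6.72% to 9.93% at 5 weeks and 11.2% to 14.4% at 10 weeks, and the falling genes 4.95% to 9.02% at 5 weeks and 4.07% to 5.93% at 10 weeks. The 10-week shares of both gene sets overlapped the 14-week range. The choice of the genes on 7- and 14-week fish bears on every order with the other ages, so none is read as a result.

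Rises and falls were spread unevenly over abundance. Below 1 CPM, rises outnumbered falls, 299 against 95 among 2847 tested genes. From 10 to 100 CPM the order was the other way, with 935 rises and 1538 falls among 6148 genes, and from 100 to 1000 CPM there were 81 rises and 148 falls among 814 genes. From 1 to 10 CPM the numbers were close, 1017 rises and 968 falls among 6508 genes. Above 1000 CPM 19 of 158 genes were called, 13 rises and 6 falls. A fit of the 10 libraries alone called 32 of these genes, and leaving out 7-week fish 2 gave 12. A gene that was not called is not shown to be unchanged.

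The share of genes called in these classes was 13.8% below 1 CPM, 30.5% from 1 to 10, 40.2% from 10 to 100, 28.1% from 100 to 1000 and 12.0% above 1000 CPM, beside 31.0% over all tested genes. The precision of the estimate changed along the same axis, with a median standard error of 0.59 on the log2 scale below 1 CPM and 0.24 to 0.32 in the other classes. From 10 CPM upward, the median standard error was 0.24, 0.27 and 0.29 over the classes, and the median absolute log2 change of all genes was 0.53, 0.42 and 0.33. The part of precision in the shares called was not tested, and no test was made between classes. Without 14-week fish 5 the rises and falls were 344 and 96, 1086 and 1108, 927 and 1865, 76 and 168, and 8 and 6, from the lowest class to the highest. Only the class of 1 to 10 CPM changed the order of rises and falls.

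**Figure D1:**
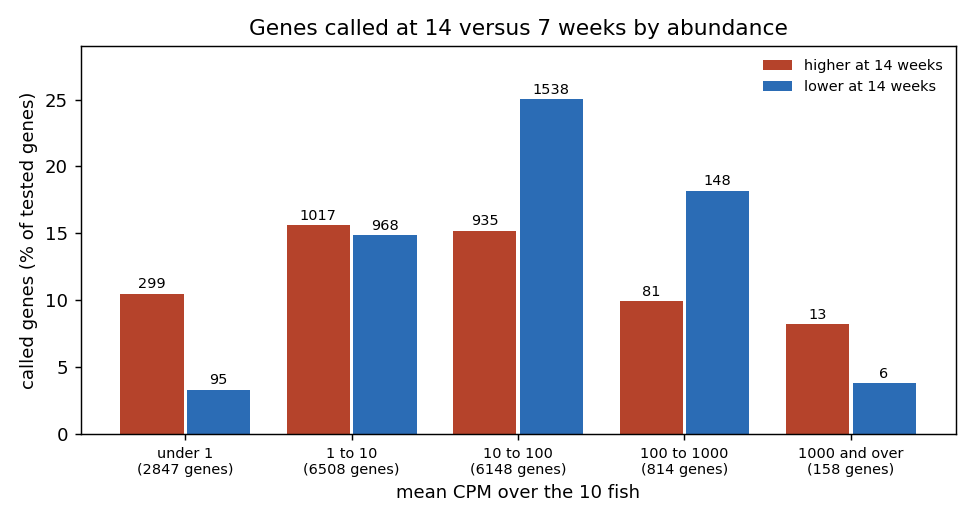
Share of tested genes called higher (red) or lower (blue) at 14 weeks than at 7 weeks, in classes of mean CPM over the 10 fish, with the number of called genes on each bar. Rises lead below 1 CPM (299 against 95) and falls lead from 10 to 100 CPM (1538 against 935).

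Long genes collect more reads at a given transcript level, so the classes were also drawn on CPM per kilobase of gene length. On that scale there were 643 rises and 235 falls among 4762 genes below 1, and 1271 and 1645 among 8174 from 1 to 10. There were 380 and 820 among 2972 from 10 to 100, and 42 and 55 among 457 from 100 to 1000. Above 1000 there were 9 rises and no fall (0) among 110 genes. The shares called were 18.4%, 35.7%, 40.4%, 21.2% and 8.18%, beside 31.0% over all tested genes. Among the 9 rises were those of ranks 12, 17, 20 and 49, whose calls were lost without 14-week fish 5. Gene length itself moved with the direction of change. In the shortest 20% of tested genes, up to 1164 bp, there were 385 rises and 585 falls. In the longest 20%, from 5502 bp, there were 556 rises and 446 falls, and the median log2 change was 0.14 against -0.05 in the shortest 20%. The median length was 3157 bp for rises, 2610 bp for falls and 2806 bp for all tested genes. Without 14-week fish 5 the numbers were 379 rises and 702 falls in the shortest 20% and 634 rises and 520 falls in the longest. The part of gene length in the counts of rises and falls was not tested.

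Few of the most abundant transcripts passed the test. Of the 20 most abundant genes, 4 rose and none fell (0), or 20.0% against 31.0% of all tested genes, and the median absolute log2 change was 0.41. DESeq2 and a fit of the 10 libraries alone each called 6 of the 20, all rises, beside 5753 and 5303 calls over all genes. Of the 100 most abundant, 9 rose and 3 fell (12.0%). Ranked per kilobase of gene length, 2 of the 20 most abundant genes rose and none fell (0). The lists of the 20 most abundant genes at 14 weeks and at 7 weeks shared 16 genes, and the lists of the 100 most abundant shared 81.

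At rank 1, levels were 47223, 59176, 45453, 47150 and 44985 CPM in 14-week fish 1 to 5, against 46228, 47583, 40464, 32108 and 32442 CPM in 7-week fish 1 to 5. Its fish overlapped between the ages, and its log2 change of 0.30 (SE 0.30) was not called (edgeR adjusted p = 0.480). The genes of ranks 2 to 6 all had lower means at 14 weeks, with log2 changes of -0.45 to -0.08, and none was called (edgeR adjusted p of 0.318 to 0.877). In fits without a single fish the log2 change ran from -0.37 to 0.03 at rank 2 and from -0.20 to 0.09 at rank 5. At rank 5 it was 0.05 without 14-week fish 5. At ranks 3, 4 and 6 it stayed negative in every such fit.

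Rank 10 showed the largest change of the 20. It had 14774, 17663, 14012, 16602 and 6140 CPM in 14-week fish 1 to 5, against 5846, 7108, 2339, 3361 and 2097 CPM in 7-week fish 1 to 5. Only 14-week fish 5 overlapped the 7-week fish, by lying below 7-week fish 2. The log2 change was 1.74 (SE 0.45, edgeR adjusted p = 0.00667), and the gene went up by 0.959 percentage points of all counts, to 1.37% at 14 weeks, against 0.413% at 7 weeks. This was the largest shift in share of any gene. The call held in all 10 fits without a single fish, with log2 changes of 1.56 to 2.02.

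The other 3 calls among the 20 were smaller. The gene of rank 17 averaged 7534 ± 1996 CPM at 14 weeks and 4092 ± 793 CPM at 7 weeks (SD, n = 5 each), with a log2 change of 0.88 (SE 0.28, edgeR adjusted p = 0.0199). The rank 20 gene averaged 6456 ± 1984 CPM at 14 weeks and 3790 ± 706 CPM at 7 weeks (SD, n = 5 each), with a log2 change of 0.77 (SE 0.27, edgeR adjusted p = 0.0381). In both genes the fish of the ages did not overlap. The same was true of ranks 8 and 14, which were not called (edgeR adjusted p = 0.0610 and 0.0761). The rank 12 gene averaged 9633 ± 3197 CPM at 14 weeks and 5141 ± 881 CPM at 7 weeks (SD, n = 5 each; edgeR adjusted p = 0.0457), with overlap. In all 3 genes 14-week fish 5 was the highest, and all 3 calls were lost without it. Without this fish the log2 change was 0.70 at rank 17 (edgeR adjusted p = 0.0585), 0.56 at rank 20 (edgeR adjusted p = 0.120) and 0.70 at rank 12 (edgeR adjusted p = 0.124), each in the same direction as with all fish. The call at rank 17 was also lost without 7-week fish 2, that at rank 20 in 4 other fits without a single fish, and that at rank 12 in 8 others. Leaving out either 14-week fish 5 or 7-week fish 2 reduced the calls among the 20 to 1. Leaving out 14-week fish 4, 7-week fish 3 or 7-week fish 4 reduced them to 2.

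**Figure D2:**
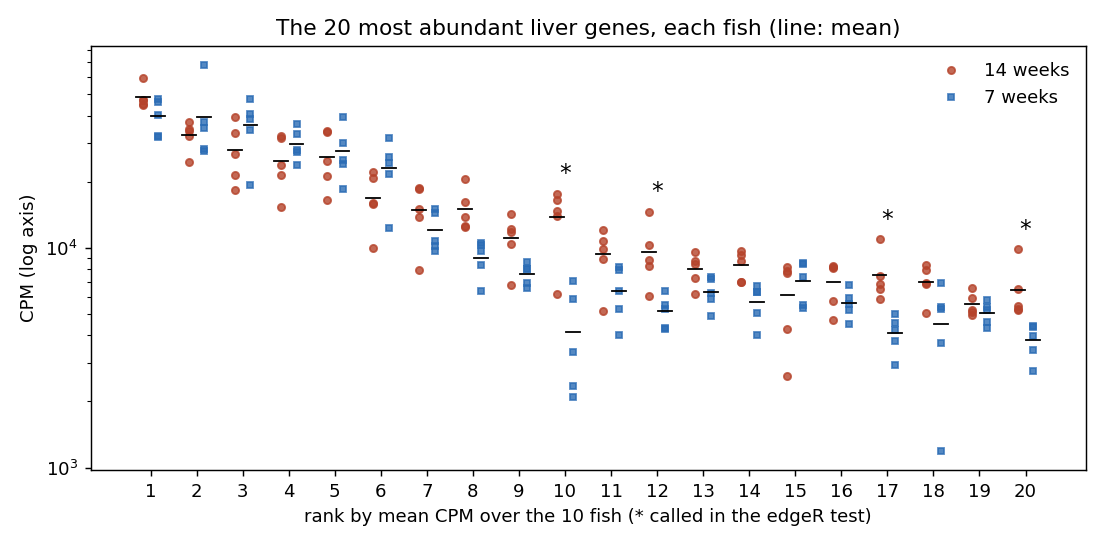
CPM of the 20 most abundant genes on a log axis in each 14-week fish (circles) and 7-week fish (squares), with horizontal lines for the mean of each age and stars for called genes. The circles and squares overlap for most ranks, and rank 10 shows the widest shift (log2 change 1.74).

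Below these ranks, the 6 falls among genes above 1000 CPM separated the fish fully. In all 6 the fish of the ages did not overlap, and all 6 calls held in the 10 fits without a single fish. Among all called falls, 72.2% had no overlap and 72.2% held in all 10 fits. The class was set on the mean of both ages, and the 14-week means of these genes were 93.3 to 778 CPM. They are in the class through their 7-week fish, so wide falls are in part fixed by the choice. Over all 158 tested genes of the class, called or not, 12 higher and 8 lower at 14 weeks had no overlap. This was 12.7% of the class, against 21.7% of all tested genes. The gene of rank 76 had 179, 86.2, 127, 117 and 267 CPM in 14-week fish 1 to 5, against 4361, 4542, 2876, 2996 and 2916 CPM in 7-week fish 1 to 5. Every 14-week fish lay more than 10-fold below every 7-week fish, and the log2 change was -4.51 (SE 0.53, edgeR adjusted p = 9.78e-06). The rank 142 gene had 45.7, 114, 73.8, 175 and 57.8 CPM in 14-week fish 1 to 5, against 2543, 1415, 1720, 2811 and 1981 CPM in 7-week fish 1 to 5. Its log2 change was -4.49 (SE 0.75, edgeR adjusted p = 0.000256).

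The genes of ranks 121 and 78 fell with log2 changes of -3.65 and -3.04, and in both 14-week fish 5 was the lowest of the 10 fish, at 64.0 and 150 CPM. The genes of ranks 135 and 88 fell with log2 changes of -1.89 and -1.68. The 6 genes had means of 89.7 to 904 CPM at 10 weeks and 72.1 to 1015 CPM at 5 weeks, all below their lowest 7-week fish. Since high 7-week fish brought them into the class, this order is not read as a result. Of the 13 rises above 1000 CPM, 4 held in all 10 fits. The largest was that of rank 51, which had 3309, 1210, 4024, 5319 and 6439 CPM in 14-week fish 1 to 5, against 1119, 394, 693, 462 and 1194 CPM in 7-week fish 1 to 5. The groups did not overlap but came close, since 14-week fish 2 lay just above 7-week fish 5 (log2 change 2.39, SE 0.57, edgeR adjusted p = 0.00345). Its 7-week mean was 772 CPM, and the 7-week means at ranks 117, 138, 149 and 156 were 768, 637, 434 and 533 CPM. These rises are in the class through their 14-week fish, so their size is also in part fixed by the choice.

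Whole-library measures showed no difference that passed the test. The 20 most abundant genes took 30.4% ± 2.97 of counts at 14 weeks and 28.4% ± 0.925 at 7 weeks (SD, n = 5 each; exact two-sided permutation test, p = 0.183, adjusted p = 0.274 over 3 measures). The number of genes that together held 50% of the counts was 89.2 ± 13.5 at 14 weeks and 104 ± 5.41 at 7 weeks (SD, n = 5 each; exact permutation p = 0.0556, adjusted p = 0.167). After thinning to 24566917 counts, 19497 ± 289 genes had a read at 14 weeks and 19318 ± 381 at 7 weeks (SD, n = 5 each; exact permutation p = 0.397, adjusted p = 0.397). The smallest p that 5 against 5 fish allow is 0.00794.

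The first and second of these measures moved with 14-week fish 5, which had the lowest share in the 20 most abundant genes (26.2%) and the most genes for 50% of counts (112) of its age. In 14-week fish 1 to 4 the numbers of genes were 83, 80, 91 and 80, all below the 101 to 114 of the 7-week fish. Without 14-week fish 5, the difference was 3.10 percentage points and -20.9 genes. Each had an exact permutation p of 0.0159 before adjustment, the smallest that 4 against 5 fish allow. 14-week fish 1 to 4 all lay above the 7-week fish in the share and below them in the number of genes. Leaving out 14-week fish 5 therefore fixed these p-values, and they are not read as a result. Pairs of fish of different ages differed in the placing of 16.6% to 29.8% of their counts (median 24.6%, 25 pairs). Pairs within 14 weeks differed in 8.92% to 23.9% (median 14.7%) and pairs within 7 weeks in 9.13% to 21.6% (median 15.3%, 10 pairs each).

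Hardly any gene was switched fully on or off under a strict rule. The rule asked for at least 1 CPM in every fish of an age and at most 3 reads in every fish of the other. It found 1 gene on at 14 weeks and off at 7, and none (0) off at 14 weeks and on at 7. With the level set to 0.5 CPM it found 2 and 1. With at most 10 reads allowed as off it found 3 and 0, and with 1 fish per age allowed to fail it found 3 and 3. Looser settings combined gave more genes, 21 and 3 with 0.5 CPM and 10 reads, and 120 and 47 when 1 fish per age could also fail. Leaving out 14-week fish 2 gave 2 genes on, and leaving out either 7-week fish 3 or 7-week fish 4 gave 1 gene off. Of the 22050 genes with a read in these fish, 21009 had reads at both ages, 563 only at 14 weeks and 478 only at 7 weeks. Only 8 of the 563 had a read in every 14-week fish, and only 4 of the 478 had a read in every 7-week fish.

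The 3 genes that met the rule at 0.5 CPM are given with their reads, the first and the last chosen after their values were seen. The gene of rank 13156, on at 14 weeks by the rule of 1 CPM, had 31, 97, 73, 101 and 51 reads in 14-week fish 1 to 5, against 3, 0, 2, 2 and 1 reads in 7-week fish 1 to 5. Its level was 1.27 to 4.32 CPM at 14 weeks, and it was as low at 10 weeks, at 0 to 0.104 CPM, as at 7 weeks. At 5 weeks it ran from 0.108 to 1.38 CPM. The gene of rank 11370, Nfu_g_1_015833, had 26, 22, 73, 79 and 684 reads in 14-week fish 1 to 5, against 1, 1, 2, 0 and 2 reads in 7-week fish 1 to 5. The ratio of its summed reads, relative to the scaled totals of the libraries, was 148 for 14 over 7 weeks (95% exact interval 67.9 to 405). It was 43.9 (19.8 to 121) without 14-week fish 5, which held most of its reads. In the other direction, the rank 14158 gene had 0, 0, 0, 0 and 1 reads in 14-week fish 1 to 5, against 60, 52, 52, 26 and 32 reads in 7-week fish 1 to 5. Its ratio of 7 over 14 weeks was 220 (39.2 to 8745). The level of this gene was 0.0346 to 0.384 CPM at 10 weeks and 0.465 to 5.46 CPM at 5 weeks. The intervals cover counting error only. All 3 were chosen for this contrast in their levels, so no test is given for it.

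Over all tested genes, falls separated the fish more cleanly than rises, but not in every abundance class. In 3571 tested genes (21.7%) every 14-week fish lay on the same side of every 7-week fish, 1418 with 14 weeks higher (8.61%) and 2153 with 14 weeks lower (13.1%). Below 1 CPM 174 were higher and 68 lower, and above 1000 CPM 12 were higher and 8 lower. Lower genes led in the classes between, with 601 higher and 737 lower, 586 and 1207, and 45 and 133, from low to high. Among called genes, 52.8% of rises and 72.2% of falls had no overlap. The distance between the closest fish of the ages showed a wider gap in numbers. With reads below 3 set to 3, it was at least 2-fold in 95 genes higher and 280 lower at 14 weeks. It was at least 4-fold in 11 higher and 61 lower, at least 8-fold in 1 higher and 18 lower, and at least 16-fold in 0 higher and 1 lower. The 61 genes lower by at least 4-fold, of 16475 tested, were spread unevenly over the abundance classes. They were 1 of 2847 genes below 1 CPM, 6 of 6508 from 1 to 10 and 28 of 6148 from 10 to 100. Another 22 of 814 lay from 100 to 1000 CPM, and 4 of 158 above 1000 CPM. The 11 genes higher by at least 4-fold were 1, 6, 3, 1 and 0 over the same classes. Below 10 CPM the numbers of higher and lower genes were thus equal, and lower genes led only from 10 CPM upward.

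The gene with the widest separation, of rank 664, had 5.50, 4.38, 4.70, 3.76 and 6.55 CPM in 14-week fish 1 to 5, against 341, 378, 143, 407 and 269 CPM in 7-week fish 1 to 5. The highest 14-week fish lay 21.8-fold below the lowest 7-week fish (log2 change -5.95, SE 0.98). At 5 weeks it was at 362 CPM in fish 1, within the 7-week range, and at 4.53 to 15.9 CPM in the other fish. The next, of rank 172, had 59.6, 20.3, 44.97, 34.3 and 6.87 CPM in 14-week fish 1 to 5, against 2513, 2638, 1589, 1369 and 887 CPM in 7-week fish 1 to 5 (log2 change -5.76, SE 0.65). These genes were chosen for their separation, which is a description with no test. The excess of falls was also present without 14-week fish 5. There were then 2339 genes higher and 3309 lower without overlap (5648 in all), and 27 higher and 88 lower with a 4-fold distance, in a comparison of 4 against 5 fish that separates more easily.

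**Figure D3:**
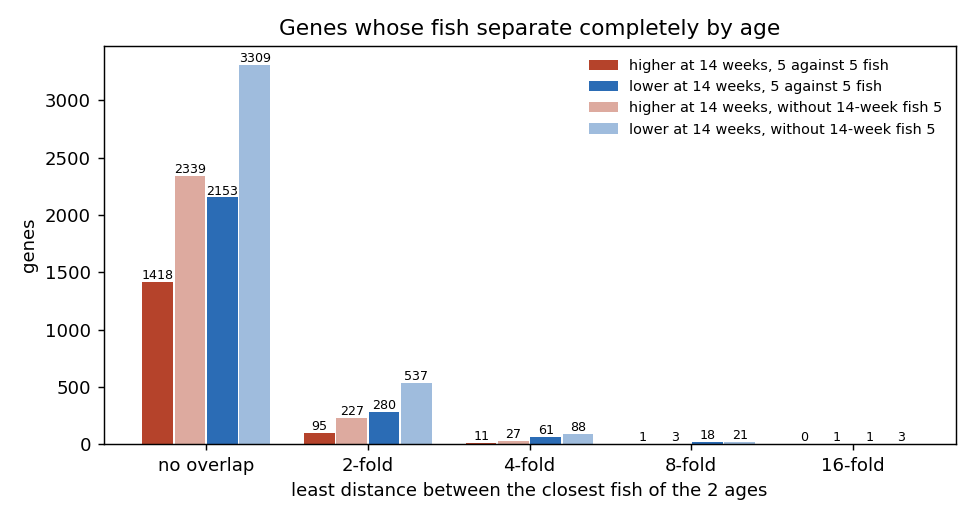
Number of tested genes in which all fish of the ages separate, by the least distance between the closest fish, for genes higher (red) and lower (blue) at 14 weeks. Pale bars leave out 14-week fish 5, and lower genes outnumber higher ones at every distance in both.

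Of the 1873 called genes with overlap, 1731 would have separated if a particular single fish were left out. That fish was 14-week fish 5 for 898 genes, 7-week fish 5 for 558, 14-week fish 2 for 295 and 7-week fish 3 for 272, and any other fish for 44 to 119. A gene can count for more than 1 fish.

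Each fish was then set against genes called without it. The fit was repeated with that fish left out, and its log2 CPM was compared with the means of the remaining fish of both ages. 7-week fish 4 was nearer to its own age in 97.0% of 4105 genes, the most of the 10 fish. 14-week fish 4, 14-week fish 3, 7-week fish 1, 7-week fish 2 and 14-week fish 1 followed at 96.0%, 94.3%, 94.2%, 93.9% and 90.4%. 7-week fish 3 was nearer to its own age in 83.9%, 14-week fish 2 in 78.3% and 7-week fish 5 in 73.5%. 14-week fish 5 was nearer to its own age in only 55.1% of 5657 genes, and in 18.8% it lay past the 7-week mean.

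On a scale where 0 is the mean of the other age and 1 the mean of the remaining fish of its own age, the median position of 14-week fish 5 was 0.581. It was 0.742 for 7-week fish 5, 0.785 for 14-week fish 2, 0.878 for 7-week fish 3, and 0.965 to 1.14 for the rest. In 9 of 10 fish the genes lower at 14 weeks followed the age more often than the genes higher at 14 weeks. The widest differences were in 7-week fish 3, with 92.6% of lower and 74.2% of higher genes, and 7-week fish 5, with 80.6% and 65.2%. Under RLE size factors the shares were 87.3% and 77.9% in 7-week fish 3 and 79.4% and 66.6% in 7-week fish 5. The difference in 7-week fish 3 thus depended on the scaling. 14-week fish 5 was the exception, with 53.9% of lower and 56.8% of higher genes. With RLE size factors its shares were 53.6% and 57.1%. Among called genes that changed at least 2-fold it was no exception, with 60.5% of lower and 56.7% of higher genes.

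**Figure D4:**
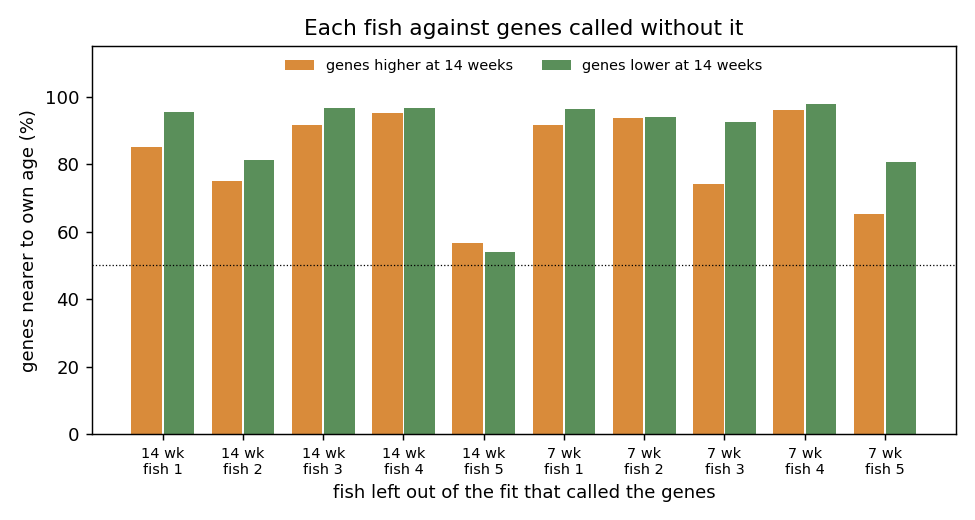
Share of genes for which a fish lay nearer to its own age than to the other, over genes called higher (orange) or lower (green) at 14 weeks in a fit without that fish; the dotted line is 50%. Shares are above 90% for both sets in 14-week fish 3 and 4 and 7-week fish 1, 2 and 4, and lowest in 14-week fish 5 (56.8% and 53.9%).

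By abundance, 14-week fish 5 was nearer to its own age in 51.4% of called genes below 1 CPM, 53.9% from 1 to 10, 55.7% from 10 to 100, 65.6% from 100 to 1000 and 78.6% of the 14 called genes above 1000 CPM. In 7-week fish 5 the shares over the classes ran from 71.0% to 82.4%.

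The spread between fish was larger at 14 weeks, an order that was not seen without 14-week fish 5. Over genes, the SD of log2 CPM had a median of 0.44 at 14 weeks and 0.34 at 7 weeks, and the SD was higher at 14 weeks in 63.7% of tested genes. Without 14-week fish 5 the median SD at 14 weeks was 0.31 and the SD was higher at 14 weeks in 43.7% of genes. This fish was singled out for its distance from its age, so a lower 14-week SD without it is in part fixed by the choice. Leaving out any other fish left these shares between 60.5% and 69.0%. In the 158 genes above 1000 CPM the order was not seen with all fish, with a median SD of 0.30 at 14 weeks and 0.33 at 7 weeks.

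In each direction, 2 genes were taken by rule from called genes without overlap and with at least 5 CPM in the higher age, namely the largest change and the smallest adjusted p. The rule could choose from 845 rises and 1742 falls. The largest rise was that of Nfu_g_1_015833, whose reads are given above. It had 1.07, 0.683, 2.26, 3.38 and 19.8 CPM in 14-week fish 1 to 5, against 0 to 0.0798 CPM in 7-week fish. 14-week fish 5 alone lifted its 14-week mean above 5 CPM. At 10 weeks it lay between 0.533 and 7.43 CPM, above all 7-week fish. The rise with the smallest adjusted p was that of Nfu_g_1_006321, with 35.6, 34.5, 41.1, 45.8 and 47.1 CPM in 14-week fish 1 to 5, against 10.7, 10.5, 5.92, 6.94 and 7.26 CPM in 7-week fish 1 to 5. The groups were far apart and the fish of each age close together (log2 change 2.30, SE 0.22, edgeR adjusted p = 1.46e-06). Its 5-week fish, at 18.1 to 37.7 CPM, and 10-week fish, at 27.7 to 43.8 CPM, also lay above all 7-week fish.

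The largest fall was that of Nfu_g_1_007386, with 5.09, 5.12, 3.34, 1.54 and 2.20 CPM in 14-week fish 1 to 5, against 573, 1389, 916, 1480 and 24.6 CPM in 7-week fish 1 to 5. 7-week fish 5 lay far below the other 7-week fish and still above every 14-week fish (log2 change -7.98, SE 1.38, edgeR adjusted p = 0.000335). At 5 weeks it was uneven, at 220 and 478 CPM in fish 1 and 2 and at 3.08 to 12.4 CPM in the others. The fall with the smallest adjusted p was that of Nfu_g_1_019784, with 2.67, 2.95, 2.10, 1.92 and 2.64 CPM in 14-week fish 1 to 5, against 23.7, 25.01, 19.5, 21.5 and 19.8 CPM in 7-week fish 1 to 5. No fish stood apart within either age (log2 change -3.15, SE 0.23, edgeR adjusted p = 1.75e-07). Its 5-week fish had 5.19 to 11.9 CPM and its 10-week fish 3.55 to 4.98 CPM, so all other ages lay below 7 weeks. The genes given by identifier were chosen on their 7- and 14-week fish, so no order with the other ages is read as a result.

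**Figure D5:**
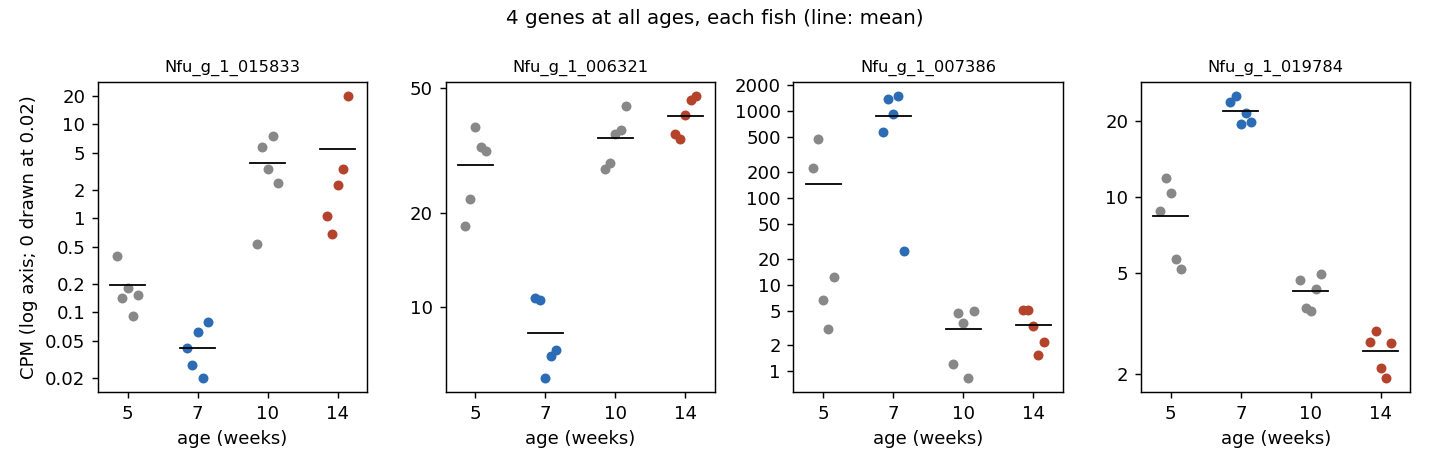
CPM of 4 genes on log axes in each fish at 5, 7, 10 and 14 weeks, with the mean of each age as a line; 7 weeks is blue, 14 weeks red and other ages grey, and 0 is drawn at 0.02. Nfu_g_1_006321 and Nfu_g_1_019784 show tight groups, while 14-week fish 5 (19.8 CPM) lies above the rest in Nfu_g_1_015833 and 7-week fish 5 (24.6 CPM) below the rest in Nfu_g_1_007386.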

How the data were processed

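Total liver RNA was sequenced from TruSeq RNA v2 libraries, per the labels. The submitters' processing notes name STAR 2.4.1d, featureCounts 1.4.6-p4 and CASAVA 1.8.2. They name no genome build, annotation or counting options. The authors deposited raw counts per gene. The authors also deposited RPKM, in which successive cells were divided by the next of 25 recycled totals and not by the total of their own library; 20 of these totals matched the libraries. This moved single RPKM values by up to 2.05-fold. RPKM served for gene lengths, which the cycle gave, and an alternative test.

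The counts were fitted with edgeR 4.0.16 in R 4.3.3: filterByExpr by age, TMM scaling, 1 mean per age over all 20 libraries, a quasi-likelihood test of 14 minus 7 weeks and Benjamini-Hochberg adjustment over 16475 genes. SE is the log2 change over the square root of F. Log2 CPM used a prior count of 2. Alternatives used DESeq2 1.42.0 and limma 3.58.1. The fit was tested on simulated counts with few changed genes, where most 2-fold changes were missed. That setting differs from these data, so it is no estimate of what was missed here. Members, lists and rules were chosen with earlier results of these data known. Genes are identified by rank, or by a rule: called, no overlap and at least 5 CPM in the higher age, then the largest change and the smallest adjusted p in each direction. Near-identical, antisense or overlapping genes may share reads. Any pair of same-age fish differed beyond sampling noise (smallest chi-square per degree of freedom 64.8, 20 pairs).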

Additional observations from a re-analysis of the deposited data

Results flagged for a closer look

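Within groups of 5 fish, 56 sets of values reported above were searched for a fish far from the others, and 5 were found. The limit used is passed in about 1 in 20 groups of independent, normally distributed values. These sets share fish and CPM need not follow that distribution, so the number found is not compared with that rate. The rank 1 gene was highest at 59176 CPM in 14-week fish 2, with the next fish at 47223 CPM. The rank 2 gene was highest at 67945 CPM in 7-week fish 3, with the next fish at 37462 CPM. The rank 20 gene was highest at 9882 CPM in 14-week fish 5, with the next fish at 6484 CPM. Nfu_g_1_015833 was highest at 19.8 CPM in 14-week fish 5, with the next fish at 3.38 CPM. This gene met the rule of 5 CPM only through that fish, so its flag was in part fixed by the choice. The number of genes holding 50% of counts was highest at 114 in 7-week fish 5, with the next fish at 103. Causes were not tested.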

How the results depend on the processing

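No paired analysis was possible because the labels give no number that links fish of different ages. The count of 5100 called genes stayed within 1.5 times under RLE size factors, no scaling, no filter, DESeq2, limma-voom and the 10 libraries alone, and ran from 4090 to 5684 without single fish. It was 2457 and 2326 with the deposited RPKM (pseudocounts of 0.1 and 1), and the number tested to exceed a fold change was 2043 at 1.5-fold and 374 to 795 without single fish. Placed per gene length, the classes from low to high held 878, 2916, 1200, 97 and 9 calls, and the class above 1000 CPM held 32 with the 10 libraries alone. Calls without single fish ran from 276 to 440, 1521 to 2194, 2043 to 2792, 194 to 244 and 12 to 19 over these classes. Rises were 51.2% of calls from 1 to 10 CPM, and 43.6% per gene length, 49.9% without a filter, 47.5% in limma-voom, 46.6% with RPKM and a pseudocount of 1, and 48.7% to 55.2% without single fish. They were 50% to 68.4% above 1000 CPM without single fish; other classes kept their side of 50% under every setting run. Among the 100 most abundant genes 12 were called, 2 among the 20 ranked per length and 1 to 4 of the 20 without single fish. Of the same 20, 6 were called with DESeq2, 6 with the 10 libraries alone and 3 with limma-voom. The share in the most abundant genes differed by -0.0015 percentage points for 10 genes and 2.33 for 50 genes (exact permutation p = 0.0476, not adjusted). For 20 genes it differed by 1.09 to 3.10 without single fish. The genes holding 50% of counts differed by -34.6 without the 20 most abundant (exact permutation p = 0.0159, not adjusted) and by -20.9 to -12.8 without single fish. Genes with a read at matched depth differed by 81.6 to 306 without single fish. Genes on at 14 weeks numbered 0 with off as 0 reads, 3 with at most 10 reads, 2 at 0.5 CPM, 0 at 5 CPM, 3 with 1 fish per age failing and 1 to 2 without single fish. Genes off at 14 weeks numbered 1 at 0.5 CPM, 3 with 1 fish per age failing and 0 to 1 without single fish. Genes without overlap numbered 3698 to 5648 without single fish. The lowest share of a held-out fish, 55.1%, moved by less than the spread between fish. The 4 genes given by identifier were called under all 18 alternatives each. They were chosen in the same data for large changes or small adjusted p, which makes this likely beforehand, so it is no separate support. Leaving out a fish lowers the number of samples; other causes were not tested. Below 1 CPM, few reads limit precision.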
